A study of Mus musculus with 16 samples.

Results

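The LGR receptors, the R-spondins and the nearest Wnt feedback genes were examined in libraries labelled as microglia sorted from mouse brain. The 10 genes were Lgr4, Lgr5, Lgr6, Rspo1, Rspo2, Rspo3, Znrf3, Rnf43, Axin2 and Lef1, picked by symbol from the 21878 mRNAs of the count and FPKM tables. Lgr6 led the choice because of its difference between EAE mice and PBS-treated mice, so that difference is described below without a test. All 10 genes had enough counts to be tested.

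Experimental autoimmune encephalomyelitis (EAE) is a mouse model of multiple sclerosis in which the immune system attacks myelin. The mice were WT females of the C57BL/6 strain, 8 weeks old. In 8 mice, EAE was induced with a peptide of myelin oligodendrocyte glycoprotein (MOG35-55) in complete Freund's adjuvant, and 200 ng of pertussis toxin was given on days 0, 2 and 7. The 8 control mice received PBS, so the peptide, the adjuvant and the toxin cannot be told apart as sources of a difference. The brain cells were gated as CD11b+/CD45int, and each mouse gave 1 total RNA library after ribosomal RNA removal. In the treatment field of the sample labels, the last peptide residue runs from 55 in EAE 1 to 62 in EAE 8. Library totals lay between 24587443 and 30244215 counts in the EAE group and between 26031889 and 34184576 counts in the PBS group.

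R-spondins are secreted proteins that bind LGR4, LGR5 and LGR6. A bound R-spondin draws the membrane E3 ubiquitin ligases ZNRF3 and RNF43 away from the Frizzled receptors, which these ligases otherwise remove from the cell surface, and so raises the response to Wnt. Within the cell, Wnt stabilises beta-catenin, which works with TCF and LEF factors. Axin2, a scaffold of the complex that degrades beta-catenin, is itself a Wnt target, as are Lgr5, Rnf43 and Znrf3. In the brain, Wnt signals are best known for blood vessels, the barrier they form and oligodendrocyte maturation.

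The libraries held RNA of several brain cell types. Summed over 17 microglia markers, FPKM was 229 to 371 in the EAE group and 211 to 348 in the PBS group. Summed over 10 neuronal markers, it was 1043 to 1314 and 1251 to 1427, respectively, and over 10 astrocyte markers 1219 to 1858 and 1426 to 1695. P2ry12, a defining microglia receptor, had a mean of 7.53 FPKM in EAE mice and 6.08 FPKM in PBS-treated mice, whereas the synaptic gene Snap25 had 209 and 211 FPKM. No marker on the 20 lists was at 0 in all libraries. Between the groups, 2 of 17 microglia markers (Itgam and Trem2) and 4 of 12 neutrophil markers rose, against 0.66% of all mRNAs. In contrast, 3 of 10 inhibitory neuron and 3 of 10 striatum markers fell, against 1.76%. Markers also passed in the pan-neuronal (2 lower), astrocyte (1 higher, 1 lower), mural (1 lower), choroid plexus (1 lower) and olfactory bulb (2 lower) lists. The part of these differences in the values below was not tested. EAE 6, 7 and 8 differed from each other by a median of 0.082 to 0.090 in log2 CPM, against 0.12 to 0.25 for other pairs of EAE libraries. PBS 5, 7 and 8 differed by 0.075 to 0.088, against 0.13 to 0.23 for other PBS pairs, and were high in olfactory bulb genes. Eomes, a transcription factor of olfactory bulb output neurons, had 154, 138 and 130 counts in PBS 5, 7 and 8 and 0 to 80 counts elsewhere. Results are therefore given for all 16 libraries, for these 6 alike libraries, for the other 10, and without PBS 5, 7 and 8. The 6 alike libraries were picked for their small differences within a group. Intervals and p-values within them rest on a spread that this choice made small, so they can be too narrow and too low.

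The promoters of 3 members are shown, those of the receptors Lgr6 and Lgr4, which were lower in EAE mice, and that of the Wnt feedback gene Axin2. The sequences are the 250 bases upstream of the RefSeq transcription start on GRCm38.p6, 5′ to 3′ on the strand of the gene, with CG dinucleotides in capitals. They lie at chr1:135105277-135105526 (minus strand) for Lgr6, chr2:109917397-109917646 (plus strand) for Lgr4 and chr11:108920099-108920348 (plus strand) for Axin2. RefSeq has the whole Axin2 gene at chr11:108917828-108950783, so the start used for Axin2 lies inside the gene, and part of the Lgr6 window also lies within the span of Lgr6.
Lgr6: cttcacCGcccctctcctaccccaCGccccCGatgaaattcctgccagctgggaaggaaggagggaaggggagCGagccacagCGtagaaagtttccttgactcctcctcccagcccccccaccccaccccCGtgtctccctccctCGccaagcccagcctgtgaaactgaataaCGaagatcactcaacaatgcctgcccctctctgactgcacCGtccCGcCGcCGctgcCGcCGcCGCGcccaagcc
Lgr4: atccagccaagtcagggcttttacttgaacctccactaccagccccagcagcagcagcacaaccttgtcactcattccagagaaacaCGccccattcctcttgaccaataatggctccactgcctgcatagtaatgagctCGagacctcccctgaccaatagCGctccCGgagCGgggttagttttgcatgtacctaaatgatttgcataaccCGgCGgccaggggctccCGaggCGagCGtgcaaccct
Axin2: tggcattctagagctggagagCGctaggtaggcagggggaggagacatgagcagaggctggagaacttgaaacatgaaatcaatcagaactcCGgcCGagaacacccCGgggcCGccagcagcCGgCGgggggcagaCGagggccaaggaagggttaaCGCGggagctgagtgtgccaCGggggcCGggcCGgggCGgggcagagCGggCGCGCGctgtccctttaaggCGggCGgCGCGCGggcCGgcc
The printed sequences held 16, 10 and 24 CG dinucleotides, respectively. With the first 50 transcribed bases added, the numbers were 24 for Lgr6, 18 for Lgr4 and 31 for Axin2. They were 29 for Rspo1, 3 to 10 over 2 windows of Rnf43 and 5 to 21 over 4 windows of Lef1. The median of all 32851 RefSeq windows of 300 bases was 7. These windows were also searched on both strands for CTTTGAA and CTTTGAT, the letters that TCF and LEF factors prefer. Of the 10 windows of Lgr4, Lgr6, Rspo1, Rnf43, Axin2 and Lef1, 0 held either motif, against 8.65% of all windows. These 10 windows, 4 of them of Lef1, are too few to tell 0 from that share. Lgr5, Rspo2, Rspo3 and Znrf3 had no window in the table.

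Of the 10 genes, Lgr4 was the most abundant, at 10.6 ± 1.29 FPKM (SD, n = 16 libraries). Axin2 followed at 7.28 ± 0.590 FPKM and Znrf3 at 5.75 ± 0.371 FPKM, and each of these genes exceeded the next in all 16 libraries. Rspo3, the most abundant R-spondin, had 3.17 ± 0.695 FPKM and exceeded Lgr5 in 11 of 16 libraries. Lgr5 (2.30 FPKM), Rspo1 (2.16 FPKM), Lgr6 (2.05 FPKM), Lef1 (2.00 FPKM) and Rspo2 (1.90 FPKM) lay within their spread of each other, with neighbours in this order ranking the same way in 6 to 10 of 16 libraries. Rnf43 was the lowest, at 0.967 ± 0.165 FPKM, and was below Rspo2 in all 16 libraries. Rspo4, the fourth R-spondin, had 0 to 16 counts per library.

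**Figure D1:**
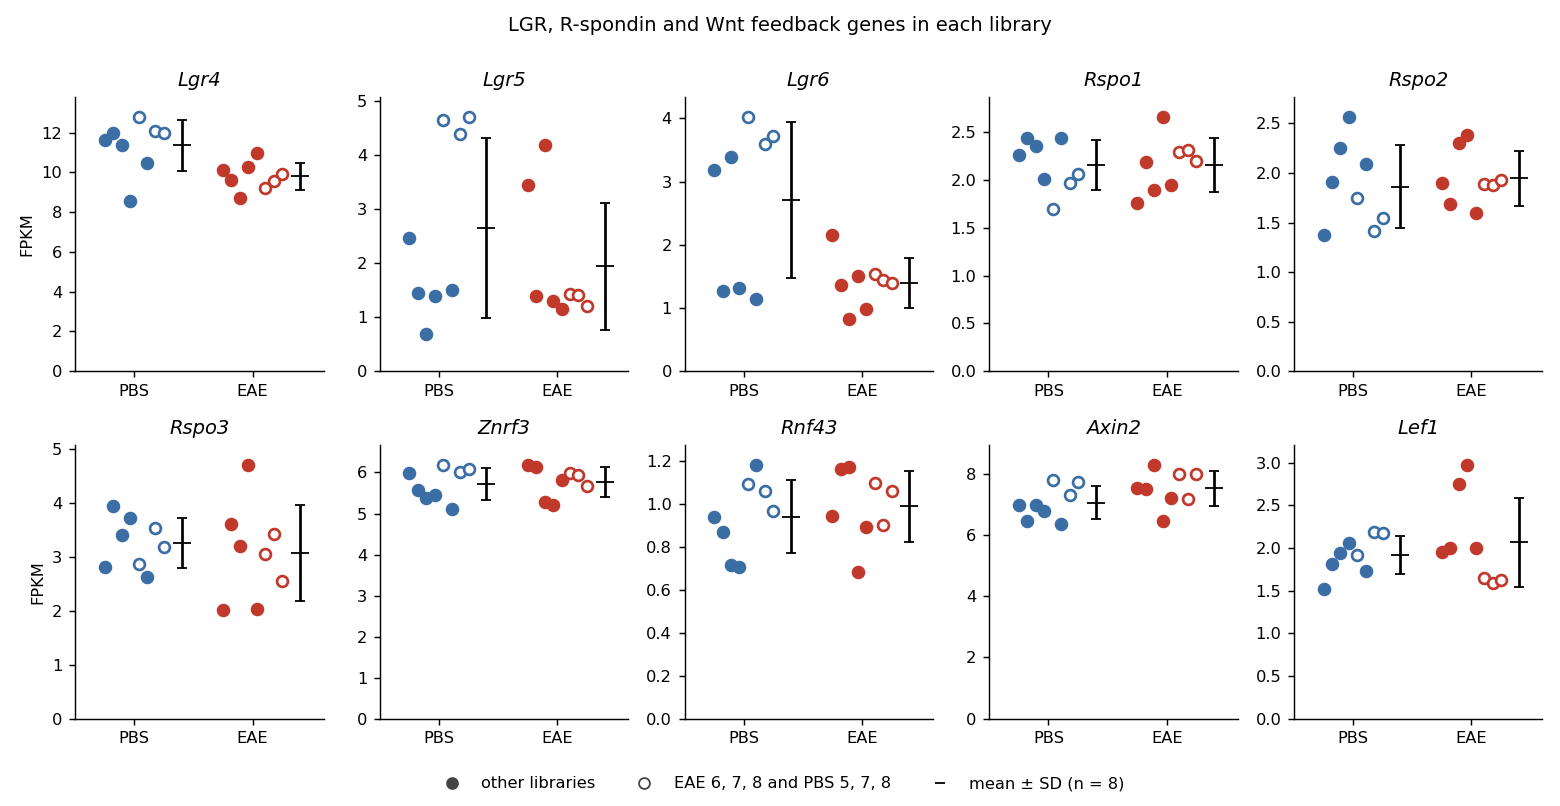
FPKM (y axis, from 0) of the 10 genes in each PBS and EAE library, with open circles for EAE 6, 7 and 8 and PBS 5, 7 and 8 and bars for the mean ± SD of 8 libraries. Lgr6 splits the PBS group into 3 libraries at 1.14 to 1.32 FPKM and 5 at 3.19 to 4.02 FPKM, and Lgr5 is above 3 FPKM in PBS 5, 7 and 8 and EAE 1 and 3.

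Lgr6, located at chr1:134983300-135105374 on GRCm38.p6, was the member with the largest difference between the groups. In PBS-treated mice, FPKM was 1.14 at the lowest, 3.29 at the median and 4.02 at the highest, and in EAE mice 0.818, 1.42 and 2.15. The raw counts were 574, 288, 638, 262, 907, 219, 849 and 794 in PBS 1 to 8 and 393, 245, 139, 271, 204, 279, 273 and 245 in EAE 1 to 8. PBS 1, 3, 5, 7 and 8 lay above all EAE libraries, whereas PBS 2, 4 and 6 lay within the range of the EAE group. EAE 3 and EAE 5 were below all PBS libraries, so the groups overlapped in the middle.

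The log2FC of Lgr6, EAE minus PBS, was −1.0 (SE 0.25, 95% interval −1.53 to −0.48), which lies at the |log2FC| threshold of 1 that the methods set for DEmRNAs. By that rule, adjusted p under 0.05 and |log2FC| over 1, 0.117% of tested mRNAs were DEmRNAs, and 0.0224% were lower ones. These shares describe all mRNAs and are no test of Lgr6. Lgr6 was chosen for its difference in these same libraries, so its log2FC can be overstated. For the same reason, its 95% intervals here and below describe spread and cannot serve as a test. When each library was left out in turn, the log2FC of Lgr6 ranged from −1.12 to −0.90. Within the 6 alike libraries it was −1.40 (95% interval −1.58 to −1.23), with 3.78 ± 0.216 FPKM (SD, n = 3) in PBS 5, 7 and 8 and 1.46 ± 0.0700 FPKM in EAE 6, 7 and 8. Within the other 10 libraries it was −0.66 (95% interval −1.34 to 0.01), with 2.06 ± 1.13 FPKM (SD, n = 5) in the PBS group and 1.36 ± 0.520 FPKM in the EAE group. Without PBS 5, 7 and 8, it was −0.61 (95% interval −1.16 to −0.06). In bulk libraries, fewer cells that carry a transcript and less of it per cell cannot be told apart.

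Lgr5, at chr10:115450314-115587780, varied more between libraries than any other member. Its FPKM was 0.695 at the lowest, 1.99 at the median and 4.70 at the highest in PBS-treated mice and 1.16, 1.40 and 4.19 in EAE mice. The raw counts were 302, 224, 89, 189, 716, 198, 708 and 683 in PBS 1 to 8 and 431, 171, 485, 160, 165, 177, 182 and 143 in EAE 1 to 8. The high libraries were PBS 5, 7 and 8 and EAE 1 and 3, and the groups overlapped. In edgeR's quasi-likelihood test the log2FC was −0.51 (SE 0.36, 95% interval −1.25 to 0.23, edgeR adjusted p = 0.496). The read strand used in counting is not given in the sources used here, and Lgr5 overlaps A930009A15Rik, which had 9 to 53 counts per library.

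The sign of the log2FC of Lgr5 differed between sets of libraries, but its positive values did not pass. Within the 6 alike libraries, picked for their small spread, its log2FC was −1.80 (edgeR adjusted p = 6.6e-12), where 24.1% of all mRNAs passed an adjusted p of 0.05. Within the other 10 libraries it was 0.55 (edgeR adjusted p = 0.647), where 0.0745% passed, and without PBS 5, 7 and 8 it was 0.32 (edgeR adjusted p = 0.690), where 1.35% passed. The difference between the sets was tested directly with an interaction term, a test chosen after these values were seen. For Lgr5 this difference, alike minus other libraries, was −2.35 (SE 0.51, edgeR adjusted p = 0.0818). Of the 10 members, 0 passed that edgeR test, in which 0.0615% of 17885 mRNAs were called, and 2, Lgr5 and Lef1, had an unadjusted p under 0.05, as did 1436 of all mRNAs, or 8.03%.

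Lgr4, at chr2:109917647-110014257, was lower in EAE mice by a small margin. FPKM was 8.58 at the lowest, 11.8 at the median and 12.8 at the highest in PBS-treated mice and 8.70, 9.78 and 11 in EAE mice. Of the PBS libraries, 6 were above all EAE libraries, and PBS 4 was below them. The log2FC was −0.26 (SE 0.07, 95% interval −0.40 to −0.12), and Lgr4 passed with an adjusted p of 0.0423 from edgeR's quasi-likelihood test. In this comparison, 2.42% of the 17885 mRNAs passed, 118 higher and 315 lower in EAE mice, which is 0.66% and 1.76%, respectively. With library totals as the only scaling, 226 were higher and 103 lower, and Lgr4 had a log2FC of −0.21 (edgeR adjusted p = 0.0985).

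The call for Lgr4 depended on single libraries. It held in 4 of 16 edgeR fits that each left out 1 library, those without EAE 4, EAE 5, PBS 4 or PBS 6, and was lost in the other 12, with an adjusted p of up to 0.102. The log2FC ranged from −0.31 to −0.24 over these 16 fits. In EAE 6, 7 and 8 and PBS 5, 7 and 8 it was −0.39 (edgeR adjusted p = 7.0e-06), within the other 10 it was −0.19 (edgeR adjusted p = 0.520), and without PBS 5, 7 and 8 it was −0.19 (edgeR adjusted p = 0.223).

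**Figure D2:**
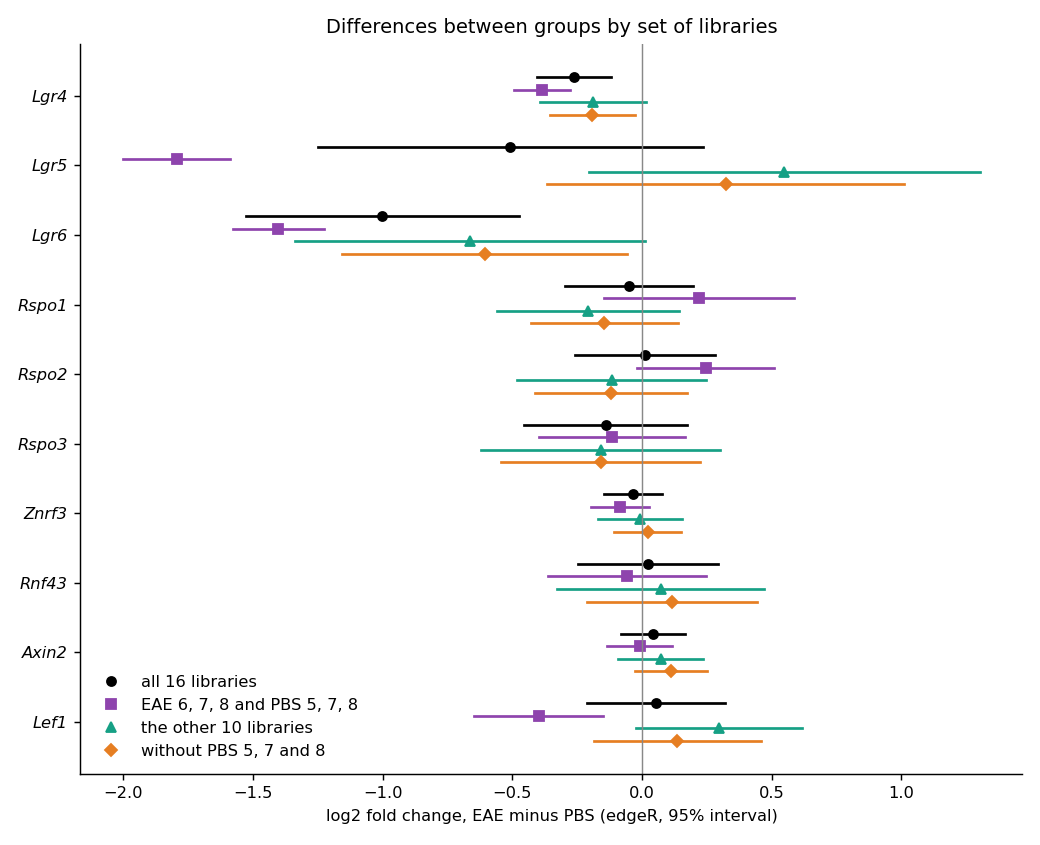
Log2 fold change, EAE minus PBS (x axis, symbols) with its 95% interval (lines) for each of the 10 genes (y axis), in all 16 libraries, in the 6 alike libraries, in the other 10 and without PBS 5, 7 and 8. The symbols of Lgr6, Lgr4 and Rspo3 stay left of 0 in all 4 sets. Those of the other genes, Lgr5 and Lef1 among them, lie on either side of 0 depending on the set.

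The R-spondin ligands did not pass the test. Rspo1 had 2.16 ± 0.263 FPKM (SD, n = 8) in PBS-treated mice and 2.16 ± 0.286 FPKM in EAE mice, and its log2FC was −0.05 (95% interval −0.30 to 0.20). Rspo2 had 1.86 ± 0.422 and 1.95 ± 0.274 FPKM, with a log2FC of 0.01 (95% interval −0.26 to 0.28). Rspo3, which stromal cells commonly produce, had 3.26 ± 0.466 and 3.08 ± 0.893 FPKM, with a log2FC of −0.14 (95% interval −0.46 to 0.17). Its EAE libraries ran from 2.02 FPKM in EAE 1 to 4.71 FPKM in EAE 4, a wider range than the 2.63 to 3.94 FPKM of the PBS group. Adjusted p-values from edgeR were 0.873 for Rspo1, 0.978 for Rspo2 and 0.682 for Rspo3.

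The E3 ligases and the feedback genes did not pass either, and their intervals were narrow for the abundant ones. Axin2 had 7.05 ± 0.531 FPKM (SD, n = 8) in PBS-treated mice and 7.52 ± 0.583 FPKM in EAE mice. Its log2FC was 0.04 (95% interval −0.08 to 0.16, edgeR adjusted p = 0.771). Znrf3 had 5.72 ± 0.398 and 5.78 ± 0.366 FPKM, with a log2FC of −0.04 (95% interval −0.15 to 0.08, edgeR adjusted p = 0.788). Rnf43 had 0.943 ± 0.172 and 0.991 ± 0.166 FPKM, with a log2FC of 0.02 (95% interval −0.25 to 0.29, edgeR adjusted p = 0.957). The interval of Rnf43 was wider than those of Axin2 and Znrf3.

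Lef1, a DNA-binding partner of beta-catenin, had 1.92 ± 0.227 FPKM (SD, n = 8) in PBS-treated mice and 2.07 ± 0.522 FPKM in EAE mice. Its log2FC was 0.05 (95% interval −0.21 to 0.32, edgeR adjusted p = 0.870). EAE 3 and EAE 4, at 2.75 and 2.98 FPKM, were above all PBS libraries, and EAE 6, 7 and 8 lay at 1.59 to 1.65 FPKM. In the 6 alike libraries, the log2FC was −0.40 (edgeR adjusted p = 0.0176), and within the other 10 it was 0.30 (edgeR adjusted p = 0.515). The difference between these sets was −0.70 (SE 0.22, edgeR adjusted p = 0.349).

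The members differed in their spread between libraries. The coefficient of variation of FPKM was 62.8% for Lgr5 in PBS-treated mice and 60.8% in EAE mice, where counting noise alone gives 5.07% and 6.47%. For Lgr6 it was 45.8% and 28.5%, against 4.20% and 6.25% from counting. It was 7.54% and 7.75% for Axin2 and 6.96% and 6.34% for Znrf3, with counting noise of 2.75% to 3.10%. In the other 6 members it lay between 7.11%, for Lgr4 in EAE mice, and 29.0%, for Rspo3 in EAE mice.

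Of the 20 marker lists, that of olfactory bulb genes had the highest absolute r with Lgr5 over the 16 libraries, a ranking that includes PBS 5, 7 and 8. Cdhr1, a cadherin of olfactory bulb output neurons, had 11.3, 10.2 and 10.4 FPKM in PBS 5, 7 and 8, 8.06 and 8.63 FPKM in EAE 1 and 3, and 6.38 FPKM in PBS 1. Those 6 libraries were also the highest for Lgr5, at 2.46 FPKM or more. Doc2g and Sp8, of the same list, did not share this match. Doc2g had 7.31 FPKM in PBS 2 but 4.62 FPKM in EAE 1, and Sp8 had 1.34 FPKM in PBS 2 but 0.182 FPKM in PBS 1. Lgr6 was high in PBS 1, 3, 5, 7 and 8, and EAE 3, with 8.63 FPKM of Cdhr1, had the lowest Lgr6 value of the series, at 0.818 FPKM. Th, the enzyme of dopamine synthesis, had 8.97, 8.82 and 8.08 FPKM in PBS 5, 7 and 8 and 2.47 to 4.88 FPKM in the EAE group. PBS 2, with 8.0 FPKM of Th, had 1.44 FPKM of Lgr5 and 1.26 FPKM of Lgr6, and PBS 1 had 6.93 FPKM of Th. Cdhr1, Eomes and Th were picked from the list after their values were seen.

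**Figure D3:**
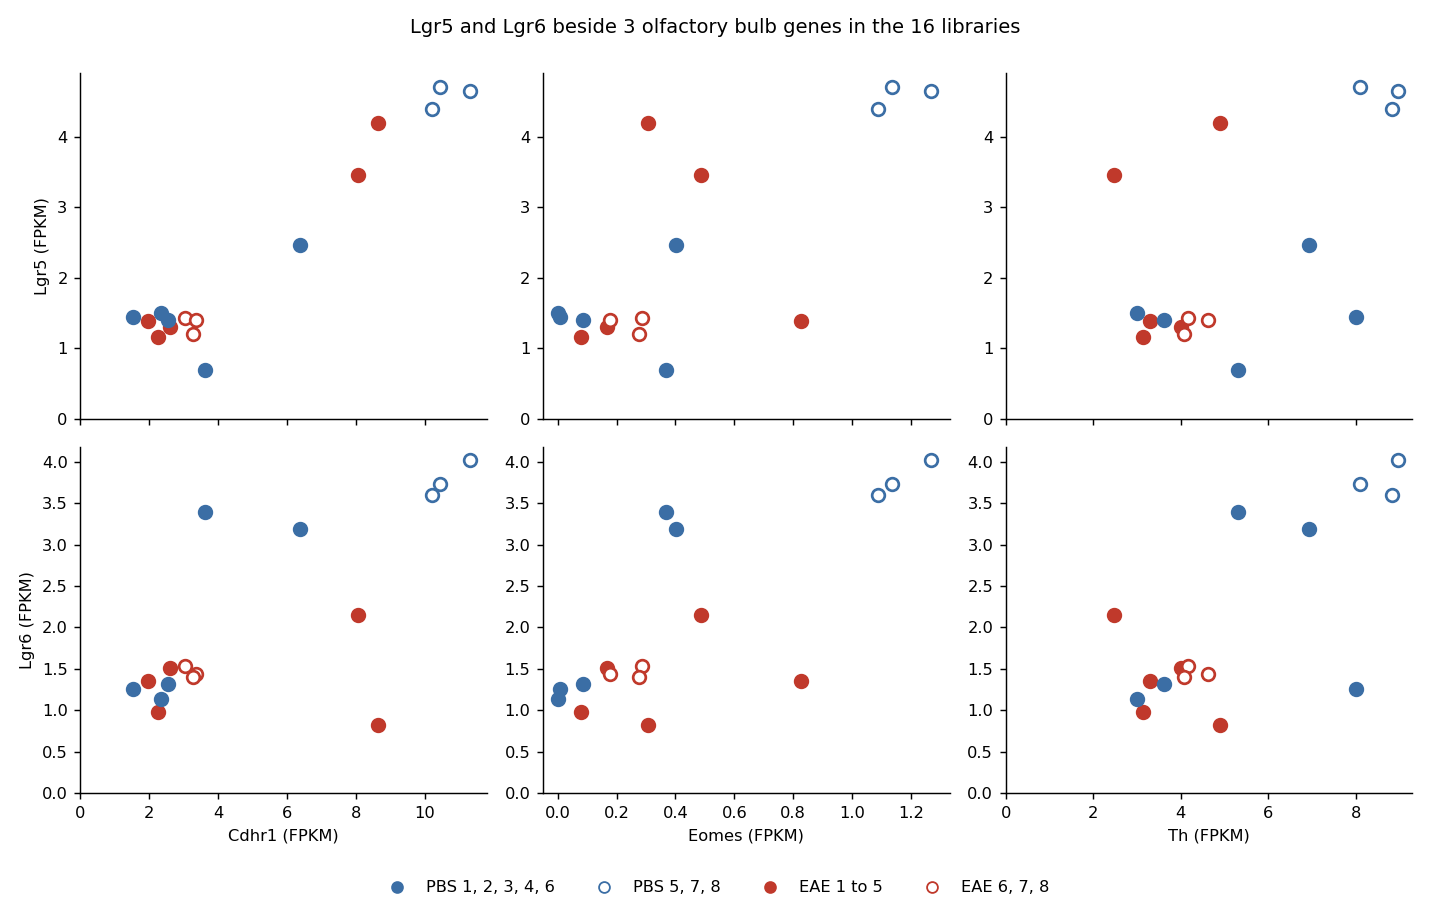
FPKM of Lgr5 (upper panels) and Lgr6 (lower panels) on the y axis against FPKM of the olfactory bulb genes Cdhr1, Eomes and Th on the x axis, 1 point per library, with open circles for EAE 6, 7 and 8 and PBS 5, 7 and 8. PBS 5, 7 and 8 lie at the upper right of each panel, and EAE 3 lies near them for Lgr5 against Cdhr1. EAE 1 and 3 are high in Cdhr1 and Lgr5 but not in Th. PBS 2 is high in Th but not in Lgr5 or Lgr6.

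Since PBS 5, 7 and 8 stood apart, the relation with the 10 olfactory bulb genes was computed within each set of libraries on values centred by group. For Lgr5, Pearson's r was 0.52 in the other 10 libraries (exact permutation p = 0.156, two-sided, 0.646 adjusted over 200 pairs), and Spearman's rho was 0.61 (exact permutation p = 0.0967). Without the 2 libraries farthest from the median, r was 0.60. For Lgr6, r was 0.39 (exact permutation p = 0.285, 0.662 adjusted), rho was 0.25 (exact permutation p = 0.492), and r was 0.02 without the 2 farthest libraries. Within the 6 alike libraries, r was −0.14 for Lgr5 (exact permutation p = 0.833) and −0.63 for Lgr6 (exact permutation p = 0.306). Between the groups, the summed FPKM of the list was 49.4 to 76.2 in the EAE group and 55.7 to 108 in the PBS group, and 0 of its 10 genes rose and 2, Th and Synpr, fell. The median log2FC of the list was −0.52, against 0.01 over all mRNAs. The part of this content in the Lgr5 and Lgr6 values was not tested.

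Of the 200 pairs of a member and a marker list, 1 passed over all 16 libraries by Pearson's r and 5 by Spearman's rho. Znrf3 passed by both, with an inverse relation to the choroid plexus list (r = −0.82, permutation p = 0.0002, adjusted p = 0.040, rho = −0.78 with permutation p = 0.00121, adjusted p = 0.0484). Without the 2 farthest libraries r was −0.83, in the other 10 libraries it was −0.81 (exact permutation p = 0.00736, adjusted p = 0.333), and in the 6 alike libraries it was −0.10 (exact permutation p = 0.833). Of the 9 genes of that list, only 1, the thyroid hormone carrier Ttr, passed between the groups, lower in EAE mice (log2FC −0.88, edgeR adjusted p = 0.0163). The log2FC of the list had a median of −0.16 and ran from −1.64 to 0.28. For Lgr6, the list with the highest absolute r was the oligodendrocyte list (r = −0.70, permutation p = 0.00759, adjusted p = 0.0893, rho = −0.58 with permutation p = 0.0336). Without the 2 farthest libraries it was −0.52, in the other 10 libraries −0.65 (exact permutation p = 0.0863) and in the 6 alike libraries 0.24 (exact permutation p = 0.639).

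The other 4 pairs that passed by rho were Lgr5 with the olfactory bulb list, Lgr6 with the neutrophil list, and Rspo2 with the excitatory neuron and choroid plexus lists. No value over 16 libraries is given for Lgr5, because PBS 5, 7 and 8 formed a separate cluster. For Lgr6 and neutrophil genes, rho was 0.76 (permutation p = 0.00059, adjusted p = 0.043) and r was 0.50 (permutation p = 0.039, adjusted p = 0.200), or 0.62 without the 2 farthest libraries. In the other 10 libraries rho was 0.49 (exact permutation p = 0.189) and r was 0.41. In the 6 alike libraries r was 0.95 (exact permutation p = 0.0278, the smallest p that set can give). Lgr6 had the same permutation p there with the astrocyte list (r = −0.93) and the ependymal list (r = −0.95). Rspo2 had a rho of 0.81 with the excitatory neuron list and 0.82 with the choroid plexus list (permutation p = 0.0007 and 0.00086, adjusted p = 0.043 for both). In the other 10 libraries, these values of rho were 0.78 and 0.72 (exact permutation p = 0.0156 and 0.0333), and without the 2 farthest libraries r was 0.71 and 0.75. With the choroid plexus list, r of Rspo2 was 0.77 over all libraries and 0.54 in the 6 alike libraries (exact permutation p = 0.611).

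Rspo1 had its highest absolute r with the olfactory bulb list, and it was −0.34 in the other 10 libraries (exact permutation p = 0.428) and 0.34 in the 6 alike libraries (exact permutation p = 0.750). The other members had their highest absolute r with the mural list (Lgr4, 0.74), the excitatory neuron list (Rspo2, 0.80), the fibroblast and meningeal list (Rspo3, 0.66), the ependymal list (Rnf43, −0.69), the oligodendrocyte list (Axin2, −0.74) and the thalamus list (Lef1, 0.73). The permutation p of r, adjusted over 200 pairs, was 0.0507 to 0.119 for these 6 pairs. In the other 10 libraries, r was 0.77, 0.84, 0.81, −0.79, −0.59 and 0.70, in the same order. In the 6 alike libraries, it was 0.04, −0.39, 0.48, −0.27, −0.63 and 0.25.

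Across the 13952 mRNAs with a mean of at least 50 counts, the genes whose values followed those of Lgr6 most closely within the groups were Mmp19 (r = 0.89), Pde1c (0.88), Gm29779 (0.86), Adamts9 (0.84) and Calb2 (0.84). In the other 10 libraries their r ranged from 0.82 to 0.85. Mmp19 and Adamts9 encode secreted metalloproteinases, Pde1c a cyclic nucleotide phosphodiesterase and Calb2 calretinin, an olfactory bulb list gene. The genes most opposed to Lgr6 were Rnpep (−0.86), Myrf (−0.86), which drives myelin genes, and Slc7a3 (−0.83). For Lgr5, the most alike genes were Fam184a, the homeobox gene Pbx3 and the receptor phosphatase gene Ptpro, with r of 0.89, 0.91 and 0.87 in the other 10 libraries. For Lgr4 they included Lrig1 (0.91) and Notch2 (0.90). These values describe 16 libraries of mixed cell content and carry no test.

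The rest of the Wnt pathway was compared in 12 lists with 100 genes, of which 98 could be tested. Outside the 10 members, 0 of 88 tested genes rose and 1, Frzb, fell, or 1.14%, against 2.42% of all mRNAs, and the median log2FC of these 88 genes was −0.03. Frzb, a secreted Wnt inhibitor, had 2.06, 3.15 and 4.0 FPKM at the lowest, median and highest in EAE mice and 3.15, 4.54 and 5.52 FPKM in PBS-treated mice. The log2FC of Frzb was −0.59 (SE 0.14, edgeR adjusted p = 0.0277), and the groups overlapped. It passed in 11 of 16 fits that left out 1 library, and its adjusted p was at most 0.0605 in the fits without EAE 2, EAE 3, PBS 2, PBS 5 or PBS 7, where the call was lost. Without PBS 5, 7 and 8 together, the adjusted p was 0.155 from edgeR, and in limma on log2(FPKM + 0.1) it was 0.0646.

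**Figure D4:**
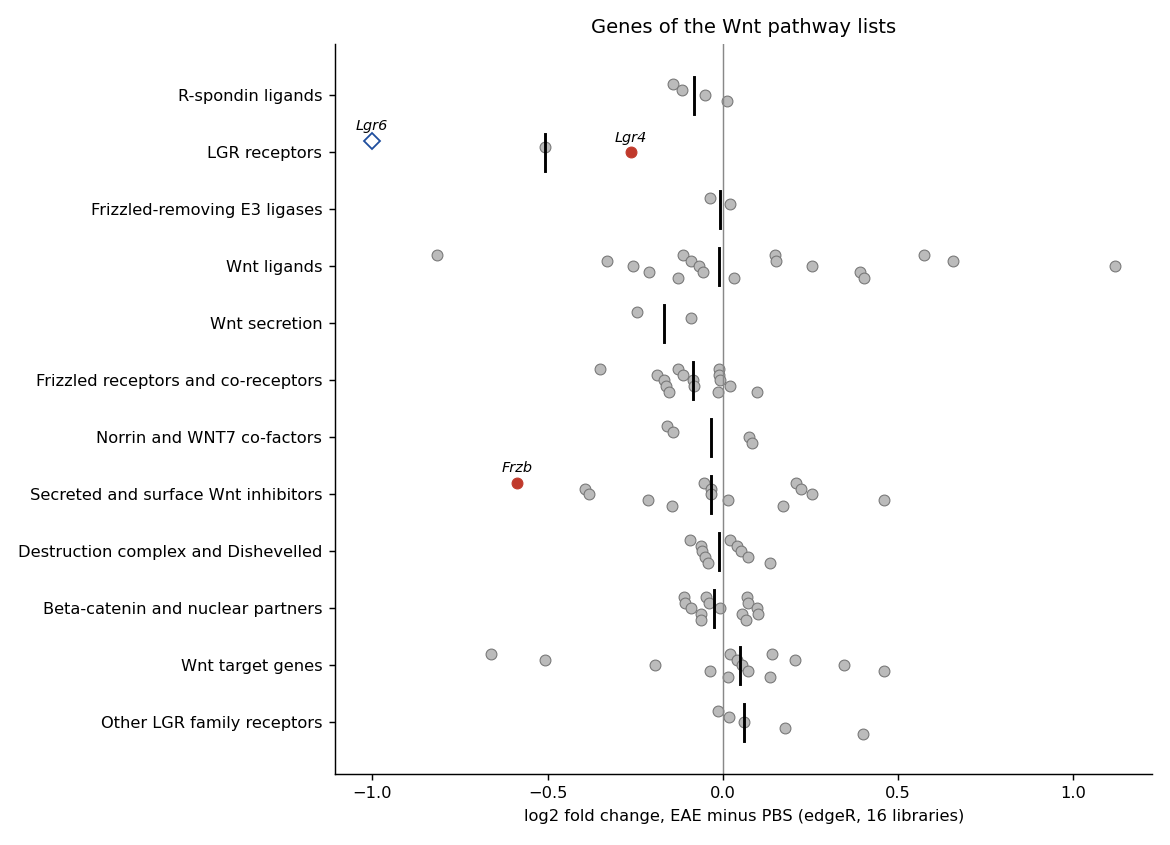
Log2 fold change, EAE minus PBS (x axis), of each tested gene (points) in the 12 Wnt pathway lists (y axis), with a vertical bar at the median of each list. The filled red points, Lgr4 and Frzb, passed an adjusted p of 0.05 in edgeR's quasi-likelihood test, and Lgr6, an open blue diamond, was chosen for its difference and is shown without a test.

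Among the 18 tested Wnt ligands, 0 passed in edgeR, with a median log2FC of −0.01. The smallest p was that of Wnt16 (log2FC 0.57, SE 0.17, edgeR adjusted p = 0.0667), with 69 to 142 counts in the EAE group and 55 to 101 in the PBS group. Wnt3a and the inhibitor gene Dkk1 had at most 4 counts in any library and were not tested. Of the genes for Wnt release, Wls, the carrier of Wnt proteins to the cell surface, had a log2FC of −0.24 (SE 0.08, edgeR adjusted p = 0.127).

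Of the 15 Frizzled receptors and co-receptors, 0 passed in edgeR, with a median log2FC of −0.09. Fzd2 had the smallest p among them (log2FC −0.35, SE 0.11, edgeR adjusted p = 0.0813). Wnt16 and Fzd2 passed in the DESeq2 Wald test, edgeR's exact test and the fit with a term for the alike libraries. Of the 4 Norrin and WNT7 co-factors, Tspan12 had the smallest p (log2FC −0.16, edgeR adjusted p = 0.471). Of the 14 secreted and surface inhibitors tested, 1 fell, which was Frzb. The 10 genes of the destruction complex and Dishevelled and the 14 of beta-catenin and its nuclear partners had median log2FC of −0.01 and −0.02. Their smallest p-values were those of Apc (log2FC −0.09, edgeR adjusted p = 0.410) and Ctnnb1, the beta-catenin gene (log2FC −0.11, edgeR adjusted p = 0.257).

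None of the 14 Wnt target genes passed in the edgeR test. Their median log2FC was 0.05, and the smallest p was that of the cell cycle gene Ccnd1. Ccnd1 had 7.13 ± 0.356 FPKM (SD, n = 8) in EAE mice and 5.97 ± 0.389 FPKM in PBS-treated mice. Its log2FC was 0.20 (SE 0.06, edgeR adjusted p = 0.0604). It passed in 7 of 11 alternatives that kept all 16 libraries. Of the 5 other LGR family receptors, which bind glycoprotein hormones or relaxin, Rxfp1 had the smallest p (log2FC 0.40, SE 0.14, edgeR adjusted p = 0.124).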

How the data were processed

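RNA-seq was available for cells labelled as microglia from 8 EAE and 8 PBS-treated mice, 1 library per mouse. The authors aligned the reads to GRCm38 with HISAT2 (2.1.0), counted them with HTSeq (0.11.2) and deposited raw counts per mRNA, with no normalization. They also deposited FPKM values, which equal the counts divided by the library total and by 1 length per mRNA. The submitters' processing notes also list DESeq2 (1.22.2), and the strand setting of counting is not given in the sources used here.

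Here the counts were tested with edgeR 4.0.16 (R 4.3.3): TMM normalization, quasi-likelihood test, two-sided, group as the only term, mRNAs with 16 or more counts in total, and Benjamini-Hochberg adjustment over the 17885 tested mRNAs. A pass is an adjusted p under 0.05. DEmRNAs, the study's term, must also have a |log2FC| over 1. FPKM served for levels. Within-group correlations used log2 CPM (prior count 2) centred by group and 100000 permutations of libraries within groups, in Python with NumPy. All 14400 permutations were used in the set of 10 libraries. All possible ones were used in the set of 6, where the permutation p cannot be below 0.0278. Pearson's r and Spearman's rho were each adjusted over the 200 pairs.

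The members, the gene lists and the set of 6 alike libraries were chosen with earlier results of these data known. Named were the 10 members, per list the genes that passed or else the one with the smallest p, the marker list with the highest absolute r per member, and the genes most alike to a member, of which 1 is not reported here. Alternatives were DESeq2 size factors, library totals, other filters, DESeq2 1.42.0, edgeR's exact and robust tests, limma 3.58.1 on log2(FPKM + 0.1) and log2(FPKM + 1), a replicate block, a term for the alike libraries, sets of libraries, and each library left out. The fit without PBS 5, 7 and 8 and the interaction test were added after the data were seen. The fits were checked on simulated counts. Positions and promoters are from RefSeq on GRCm38.p6, matched by symbol (10 and 6 of 10 members).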

Additional observations from a re-analysis of the deposited data

How the results depend on the processing

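Lgr6, chosen for its difference, is left out of the counts of members and Wnt list genes. Of 270 values of log2FC for the other 9 members under alternatives, 225 kept their direction and their side of an adjusted p of 0.05. The number of members that passed, 1 over all libraries, was 0 with library totals only, with limma on either FPKM scale, within the other 10 libraries and without PBS 5, 7 and 8, and 3 within the 6 alike libraries. It ranged from 0 to 1 when each library was left out. The Wnt list genes that passed, 2 over all libraries, were 5 with the DESeq2 Wald test, edgeR's exact test and the term for the alike libraries, 1 with limma on either scale, 29 within the 6 alike libraries, 0 within the other 10 and without PBS 5, 7 and 8, and 0 to 8 with 1 library left out. Beside these counts, 2.42% of all mRNAs passed over all libraries and 24.1% within the 6 alike libraries. The share was 0.0745% within the other 10 and 1.35% without PBS 5, 7 and 8. Ccnd1 was called in 7 of 11 alternatives that kept all 16 libraries, and Frzb in 9.

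Over all mRNAs, 433 passed, and the number was 910 with the DESeq2 Wald test, 745 with the exact test, 205 and 237 with limma on log2(FPKM + 0.1) and log2(FPKM + 1), 768 with the term for the alike libraries, 4147 within them, 13 within the other 10, 239 without PBS 5, 7 and 8, and 144 to 1317 with 1 library left out. DEmRNAs, 21 in all, numbered 52 with the exact test, 5 with limma on log2(FPKM + 1), 38 with the term, 177 within the 6 alike libraries, 6 within the other 10, 45 without PBS 5, 7 and 8, and 13 to 49 with 1 library left out. Limma called 132 mRNAs higher and 73 lower on log2(FPKM + 0.1), and 157 and 80 on log2(FPKM + 1).

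The log2FC of Lgr5, −0.51 over all libraries, and of 6 members between −0.05 and 0.05 changed sign in some settings, and none of these values but that of Lef1 passed. With library totals only, it was 0.0012 for Rspo1 and 0.014 for Znrf3, and with limma it was 0.015 for Znrf3 on log2(FPKM + 0.1) and 0.013 on log2(FPKM + 1). Within the 6 alike libraries it was 0.22 for Rspo1, −0.059 for Rnf43, −0.0089 for Axin2 and −0.40 for Lef1. Within the other 10 it was 0.55 for Lgr5 and −0.12 for Rspo2, and without PBS 5, 7 and 8 it was 0.32 for Lgr5, −0.12 for Rspo2 and 0.022 for Znrf3. With 1 library left out, it ranged from −0.044 to 0.092 for Rspo2, from −0.027 to 0.086 for Rnf43 and from −0.035 to 0.097 for Lef1. The cause of these changes was not tested.

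The labels number the replicates 1 to 8 in both groups. Same-numbered libraries correlated above 0.1 in 3 of 8 pairs (range −0.25 to 0.59), and 2 of 8 libraries correlated best with their own number, so the numbers were not taken as pairs. With a replicate block, 1 member passed, Lgr4 (log2FC −0.26, edgeR adjusted p = 0.0444), the log2FC of Lgr6 was −0.89, and 517 mRNAs passed. The Wnt list genes that passed numbered 4 with the block, Frzb, Fzd2, Lgr4 and Rxfp1.

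Of 200 member and list pairs, 1 passed by Pearson's r over all libraries, 3 on log2(FPKM + 0.1) and 10 with DESeq2 size factors. The number was 0 within the other 10 libraries and 0 to 7 with 1 library left out. Within the 6 alike libraries the exact permutation p cannot be below 0.0278. That is too high for a few pairs to pass after adjustment over 200 pairs, so no count is given for that set. Member pairs that passed numbered 0 over all libraries and 0 to 2 with 1 left out. Within the 6 alike libraries r changed sign for Lgr5 (−0.14), Rspo1 (0.34) and Lgr6 (−0.63) with the olfactory bulb list, for Lgr6 with the oligodendrocyte list (0.24) and for Rspo2 with the excitatory neuron list (−0.39).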

Other observations

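Of the 45 pairs of members, 0 passed the within-group correlation test after adjustment over the pairs, and 7 had an unadjusted permutation p under 0.05 over the 16 libraries. The smallest p was that of Rspo2 and Znrf3 (r = −0.71, permutation p = 0.00324, adjusted p = 0.0828, rho = −0.72 with permutation p = 0.00497). Without the 2 farthest libraries their r was −0.71, in the other 10 libraries −0.67 (exact permutation p = 0.0476) and in the 6 alike libraries 0.24 (exact permutation p = 0.528).

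Among the 13952 abundant mRNAs, Rspo3 was most alike to Col3a1, a fibrillar collagen gene of stromal cells (r = 0.95, and 0.98 in the other 10 libraries), followed by Pcdh19 (0.90) and Sncg (0.89). Axin2 was most alike to Prrc2c (0.92), Hmcn1 (0.89) and the acetyltransferase gene Ep300 (0.89), and Znrf3 to Rassf1 (0.90), Rhbdf2 (0.89) and Bcl7c (0.89). Rnf43 was most alike to Pole (0.91), Ifrd2 (0.90) and Amh (0.90), and Lef1 to Dcdc5 (0.88), Stxbp3 (0.87) and Psip1 (0.85). For Rspo2 these genes were Hnrnph1 (0.88), Stmn3 (0.88) and Dtx4 (0.88), and for Rspo1 they were Ppil6 (0.80), Fam120a (0.80) and Gatb (0.80). These are values of r over 16 libraries centred by group, described without a test.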
